A study of Mus musculus with 4 samples.

Results

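The Hox cluster genes were followed across control and BMP3-treated C3H10T1/2 cells, a mouse line of embryonic origin that the labels describe as mesenchymal stem cells. They were chosen by name, as every gene whose array symbol is Hoxa, Hoxb, Hoxc or Hoxd with a number. Of 39 such mouse genes in RefSeq, 33 had a probe set annotated to that symbol alone, among 18193 genes measured in this way. The other 6 were not analysed here. Where a gene had several probe sets, the brightest on average was taken. Total RNA came from 2 untreated control cultures and from 2 cultures given recombinant human BMP3 at 100 ng/ml, all at 6 hours. Each was hybridised to an Affymetrix 3' expression array. The labels call them biological replicates of a single line and describe no genetic change in any group. If the cultures were not separate, p-values measure only the spread between these samples.

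Hox genes encode homeodomain transcription factors that give cells their position along the head-to-tail axis. In mammals they lie in 4 clusters, and the order of the genes along a cluster follows the order in which they are used along the axis, with the low numbers at the anterior end and the high numbers at the posterior end. Mesenchymal and fibroblast cells are known to keep the Hox pattern of the place they came from when they are grown in culture. Polycomb proteins hold unused Hox genes silent, Trithorax proteins keep used ones active, and the TALE homeodomain proteins of the Pbx, Meis and Pknox families bind DNA together with Hox proteins. BMP3, a secreted signalling protein, belongs to the TGF-beta superfamily.

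The values are the deposited log2 values of the probe sets, and a mean of 6 or more over the 4 arrays was taken as expressed. Only 4 of the 33 Hox genes reached it, Hoxa2, Hoxa3, Hoxa5 and Hoxa7, and all of them are anterior or central genes of the Hoxa cluster. That is 12.1% of the Hox genes, against 50.5% of all genes measured. The 24 members of the Hoxb, Hoxc and Hoxd clusters all stayed under it, with single-array values from 1.59 to 3.95. In a culture, fewer cells with a transcript and less of it in each cell cannot be told apart. Probe sets differ in how well they bind, so each level was set against the threshold and not against the level of another gene.

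The stretches before the starts of the 4 expressed genes and of Hoxa9, the neighbour of Hoxa7 on the posterior side, are shown because Hoxa7 is the last expressed gene toward the posterior end and Hoxa9 the next gene measured. Each is the 250 bases before the start of transcription in RefSeq, on the minus strand of chromosome 6 of GRCm38.p6, written 5′ to 3′. They lie at chr6:52164832-52165081 (Hoxa2), chr6:52213068-52213317 (Hoxa3), chr6:52204588-52204837 (Hoxa5), chr6:52218574-52218823 (Hoxa7) and chr6:52227371-52227620 (Hoxa9). Capitals mark matches on either strand to the TATA box TATAAA, the CCAAT box CCAAT, the GC box GGGCGG, the Pbx-Hox motif TGATNNAT and the Meis motif TGACAG, and neighbouring matches run together.
Hoxa2: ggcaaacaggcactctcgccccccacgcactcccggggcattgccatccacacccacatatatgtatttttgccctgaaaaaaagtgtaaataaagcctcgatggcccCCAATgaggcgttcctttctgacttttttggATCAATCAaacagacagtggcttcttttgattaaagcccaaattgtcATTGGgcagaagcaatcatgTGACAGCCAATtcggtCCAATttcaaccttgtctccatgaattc
Hoxa3: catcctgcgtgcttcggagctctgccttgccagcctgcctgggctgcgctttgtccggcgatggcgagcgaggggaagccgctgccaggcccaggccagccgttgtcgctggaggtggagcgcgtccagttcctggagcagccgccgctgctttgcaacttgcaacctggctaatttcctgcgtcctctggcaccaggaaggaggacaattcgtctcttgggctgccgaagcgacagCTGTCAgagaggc
Hoxa5: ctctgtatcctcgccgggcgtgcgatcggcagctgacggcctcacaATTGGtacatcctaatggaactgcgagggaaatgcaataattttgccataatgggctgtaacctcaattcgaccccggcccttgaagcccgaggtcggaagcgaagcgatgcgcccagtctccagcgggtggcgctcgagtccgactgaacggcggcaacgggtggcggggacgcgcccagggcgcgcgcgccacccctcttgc
Hoxa7: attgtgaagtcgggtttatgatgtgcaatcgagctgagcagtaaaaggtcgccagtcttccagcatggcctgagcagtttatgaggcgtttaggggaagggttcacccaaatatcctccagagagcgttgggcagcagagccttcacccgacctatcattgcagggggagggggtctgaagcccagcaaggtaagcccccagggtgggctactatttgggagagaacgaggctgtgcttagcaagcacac
Hoxa9: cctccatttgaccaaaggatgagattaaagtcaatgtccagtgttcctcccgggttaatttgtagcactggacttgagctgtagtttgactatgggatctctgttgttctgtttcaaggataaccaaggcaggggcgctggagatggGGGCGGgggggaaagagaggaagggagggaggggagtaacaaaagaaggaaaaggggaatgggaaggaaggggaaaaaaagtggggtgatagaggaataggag

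The Hoxa2 window held 4 CCAAT matches, 1 Pbx-Hox match and 1 Meis match, and the Hoxa3 window held 1 Meis match. The Hoxa5 window held 1 CCAAT match, the Hoxa9 window 1 GC box match, and the Hoxa7 window none of the 5 motifs. Over all 32851 RefSeq windows of this length, 33.8% held a CCAAT match, 7.68% a Pbx-Hox match, 15.9% a Meis match, 32.7% a GC box match and 12.4% a TATA box match. These windows matched 19 of the 33 members, in 21 windows, of which 11 held CCAAT, 8 the GC box, 3 the Pbx-Hox motif, 2 the Meis motif and 2 the TATA box. A match of letters is not a binding site. The number of CG pairs, the bases that DNA methylation acts on, overlapped between the sets, with 6 to 28 per window (median 12.5) in the 4 expressed genes and 2 to 35 (median 13) in 17 windows of dim members. The median over all windows was 6. The RefSeq start of Hoxa3 lies beyond Hoxa5, and its gene model overlaps those of Hoxa4, Hoxa5, Hoxa6 and the noncoding gene Gm15050. Whether Hoxa3 probe sets also read transcripts of these genes was not tested.

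Hoxa2, which patterns the hindbrain and the second pharyngeal arch, had log2 values of 8.81 and 8.95 in control replicates 1 and 2 and of 8.70 and 8.27 in BMP3 replicates 1 and 2. Hoxa3, needed for pharyngeal arch derivatives such as the thymus and parathyroid, had 7.13 and 7.40 in the controls and 7.31 and 6.76 in the treated cultures. All 8 of these values lay above the threshold, and the anterior end of the cluster was thus represented by both of its measured members. Hoxa5, a gene of the neck and upper trunk that is needed for lung development, had log2 values of 9.40 and 9.31 in the controls and 9.28 and 9.03 in the treated cultures. Hoxa7, a gene of the trunk, had 7.96 and 7.50 in the controls and 7.74 and 7.87 in the treated cultures. The remaining central member, Hoxa4, was dim, although its neighbours Hoxa3 and Hoxa5 on either side were expressed. Its values were 3.42 and 3.46 in the controls and 3.38 and 3.04 in the treated cultures. Its second probe set was lower still, at 2.42 on average.

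**Figure D1:**
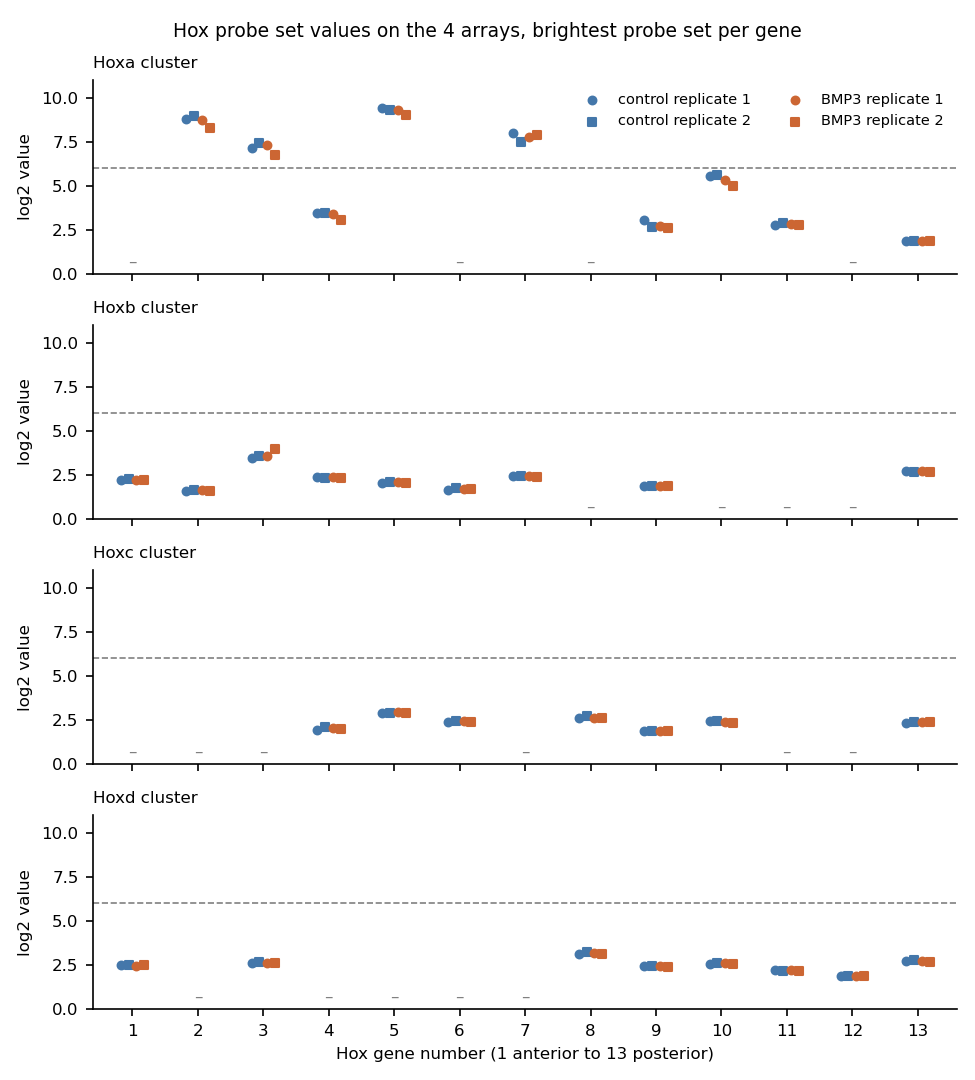
Log2 value of the brightest probe set of each of the 33 Hox genes on the 4 arrays (vertical axis) by gene number in each cluster (horizontal axis), blue for control and orange for BMP3, circles for replicate 1 and squares for replicate 2. The dashed line is the threshold of 6 and a dash marks a number with no member. Hoxa2, Hoxa3, Hoxa5 and Hoxa7 lie above the line on every array, Hoxa10 averages 5.37, and each member of the other clusters stays at or under 3.95.

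Posterior Hoxa genes did not reach the threshold. Hoxa10, a gene of the lumbar trunk, the limb and the uterus, came nearest of all dim members, at 5.57 and 5.60 in the controls and 5.30 and 5.001 in the treated cultures. Its second probe set averaged 3.02. Hoxa9, known for its role in blood stem cells and leukaemia, had 3.05 and 2.66 in the controls and 2.72 and 2.60 in the treated cultures. Hoxa11 and Hoxa13, which pattern the lower arm and the hand, averaged 2.80 and 1.87. So at a threshold of 5 in place of 6 the count of expressed Hox genes was 5, with Hoxa10 added, and at 7 it was 4. Just inside the threshold lay Hoxa3 (mean 7.15) and just outside it Hoxa10 (5.37).

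Probe sets of 1 gene did not always give the same reading. Of the 48 probe sets of the 33 members, 6 averaged 6 or more, all of them of the 4 expressed genes. Hoxa3 had 4 probe sets, with means of 7.15, 6.16, 2.30 and 2.03, so 2 of them would have placed the gene among the dim ones. When all probe sets of a gene were averaged, Hoxa3 fell under the threshold and 3 Hox genes were left. Both probe sets of Hoxa5 were bright, at 9.25 and 8.68, while both of Hoxa4 and both of Hoxa9 were dim. Hoxa2 and Hoxa7 had a single probe set each.

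**Figure D2:**
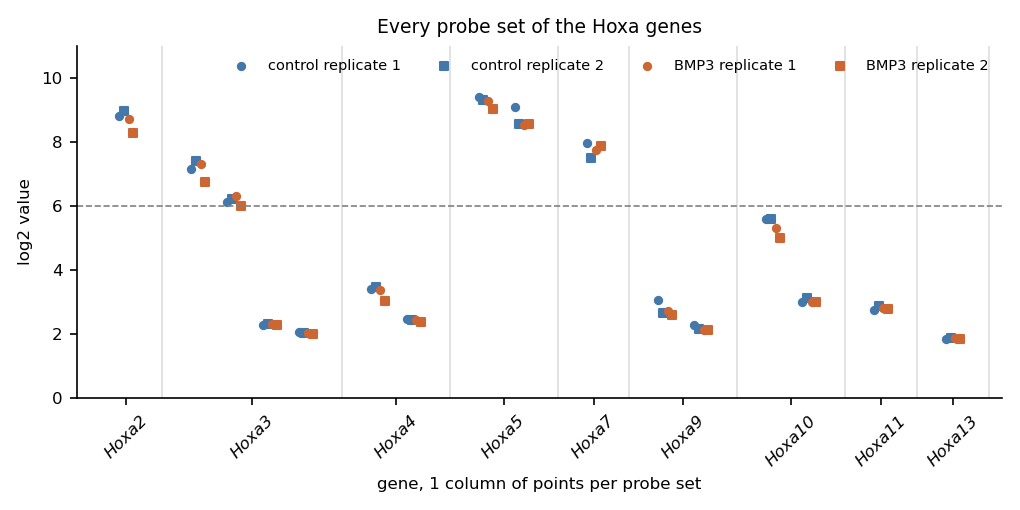
Log2 value on each array (vertical axis) of every probe set of the 9 measured Hoxa genes, in order along the cluster, with the threshold of 6 dashed. The 2 brighter probe sets of Hoxa3 average 7.15 and 6.16 and the 2 dimmer ones 2.30 and 2.03, and the probe sets of Hoxa10 average 5.37 and 3.02.

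The Hoxb cluster had 9 measured members and none expressed, with means from 1.61 (Hoxb2) to 3.64 (Hoxb3). Its anterior genes Hoxb1, Hoxb2 and Hoxb3 were dim, whereas the Hoxa genes of numbers 2 and 3 were expressed. The Hoxc cluster had 7 members, from 1.88 (Hoxc9) to 2.92 (Hoxc5), and the Hoxd cluster 8, from 1.89 (Hoxd12) to 3.16 (Hoxd8). All 32 probe sets of these 3 clusters averaged 3.64 or less. Over the 29 dim members, 26 had a mean under 3.31, the lowest of the 4 array medians, and the exceptions were Hoxa4, Hoxa10 and Hoxb3. The range of a dim member over the 4 arrays had a median of 0.07, and it exceeded 0.4 in 4 of them, Hoxa10 (0.60), Hoxb3 (0.50), Hoxa9 (0.45) and Hoxa4 (0.42). The 3 probe sets that are annotated to a pair of Hox genes each were dim as well, at means of 1.85 to 2.34.

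Other transcripts of the clusters were few on the array. Of the RefSeq genes inside the Hoxa cluster that are not Hox genes, 2 of 12 were measured and 1 was expressed. This was the long noncoding RNA Gm15050, which lies within the Hoxa3 gene model, at log2 values of 7.38 and 7.19 in the controls and 7.29 and 7.33 in the treated cultures (difference 0.03 ± 0.08 SE, limma adjusted p = 0.976). It was picked out after its values were seen. The antisense transcript Hoxa11os averaged 2.46, Hoxb5os 2.67 and Hoxd3os1 2.73, all under the threshold. Genes that flank the clusters were mostly expressed, with 13 of 17 measured at 6 or more. Skap2 and Snx10, which flank the Hoxa cluster, averaged 11.40 and 7.67. Evx1, the even-skipped homeobox gene beyond Hoxa13, averaged 2.23, and Evx2, at the corresponding end of the Hoxd cluster, 0.79. Around the clusters with no expressed member, Mtx2 beside Hoxd averaged 11.67, Cbx5 and Smug1 beside Hoxc 10.46 and 8.54, and Cbx1 near Hoxb 12.48. Other flanking genes were dim, with Jazf1, Skap1, Atf7 and Calcoco2 at 5.72, 3.14, 2.75 and 2.59. Snx11 and Ttll6 lay not far above the threshold, at 6.05 and 6.61.

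The labelled cell type was checked against markers. Of 14 measured mesenchymal markers 13 reached 6, among them the collagen genes Col1a1, Col1a2 and Col3a1 at means of 14.60, 15.73 and 16.31, and Nt5e, which encodes CD73, did not (2.54). List means ran from 12.73 to 12.90 on the 4 arrays. None of 8 endothelial, 7 haematopoietic or 8 skeletal muscle markers reached 6, with list means of 1.97 to 3.24, and the defining genes Pecam1, Ptprc and Myod1 averaged 1.94, 2.49 and 2.67. Among 8 epithelial markers (list means 3.82 to 3.86) Epcam was expressed, at a mean of 9.51 on its brightest probe set, while Krt5 averaged 5.92 and Cdh1 3.98. Krt8, Krt14, Krt18, Krt19 and Cldn4 averaged 1.99 to 2.73. Among 8 neural markers (list means 4.91 to 5.27) Map2 and Nes were expressed, at 10.67 and 7.04. Tubb3 and Sox2 averaged 4.43 and 4.84, and Sox10 5.79, with 6.49 on BMP3 replicate 2. Of the regional T-box and limb genes, Tbx15, Tbx18, Tbx3, Shox2, Prrx1 and Prrx2 were expressed (6 of 13 measured), whereas Tbx5 of the forelimb, Tbx4 and Pitx1 of the hindlimb, Hand2 and Shh were dim, at means of 1.47 to 2.26. Upstream axial genes were mostly dim, with 2 of 9 at 6 or more (Gdf11 and Nr6a1), and Cdx1, Cdx2 and Cdx4, which activate Hox genes in the tail bud, averaged 1.88 to 2.73.

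The comparison of the treated with the control cultures asked which transcripts BMP3 alters within 6 hours. No Hox gene differed at an adjusted p under 0.05 (0 of 33, smallest limma adjusted p = 0.523), and neither did any of the 45037 probe sets tested (0.0%). At an unadjusted p under 0.05 there was 1 Hox gene of 33, Hoxa10, against 9.8% of all genes (5.28% higher and 4.52% lower). Of those 1783 genes 1672 averaged 6 or more, whereas 29 of the 33 Hox genes, Hoxa10 included, did not. The 9.8% is thus not a share for genes of like level. When a fold of 1.5 or more was also required there was no Hox gene, against 1.18% of all genes higher and 1.65% lower. The 2 arrays of a group limit what can be seen. An exact permutation test of 2 against 2 cannot give a two-sided p under 0.333. Data were also simulated on 45037 probe sets, with a small part of them changed and spreads drawn from those averaging 6 or more. There the adjusted threshold found 0% of log2 changes of 1 and of 2, while the unadjusted one found 87% and 98%. Recovery after adjustment depends on the share of probe sets changed, so the 0% holds for that setting only. A value that missed the threshold is therefore not shown to be unchanged.

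Of the 4 expressed genes, Hoxa2, Hoxa3 and Hoxa5 had lower means in the treated cultures and Hoxa7 a higher one. Hoxa2 averaged 8.88 ± 0.10 in the controls and 8.48 ± 0.31 in the treated cultures (log2 mean and SD of 2 arrays), a difference of -0.40 with a 95% confidence interval of -0.97 to 0.18 (limma adjusted p = 0.780). Both BMP3 values lay under both control values. Hoxa5 averaged 9.35 ± 0.06 and 9.15 ± 0.18, a difference of -0.20 (interval -0.54 to 0.14, limma adjusted p = 0.840), and its groups did not overlap either. Its second probe set gave -0.28 ± 0.21 (SE). Hoxa3 averaged 7.26 ± 0.19 and 7.03 ± 0.40, a difference of -0.23 (interval -0.99 to 0.53, limma adjusted p = 0.913), with overlapping groups, and its other bright probe set gave -0.02. Hoxa7 averaged 7.73 ± 0.33 and 7.80 ± 0.09, a difference of 0.07 (interval -0.52 to 0.67, limma adjusted p = 0.969). Its BMP3 values lay between the control values.

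**Figure D3:**
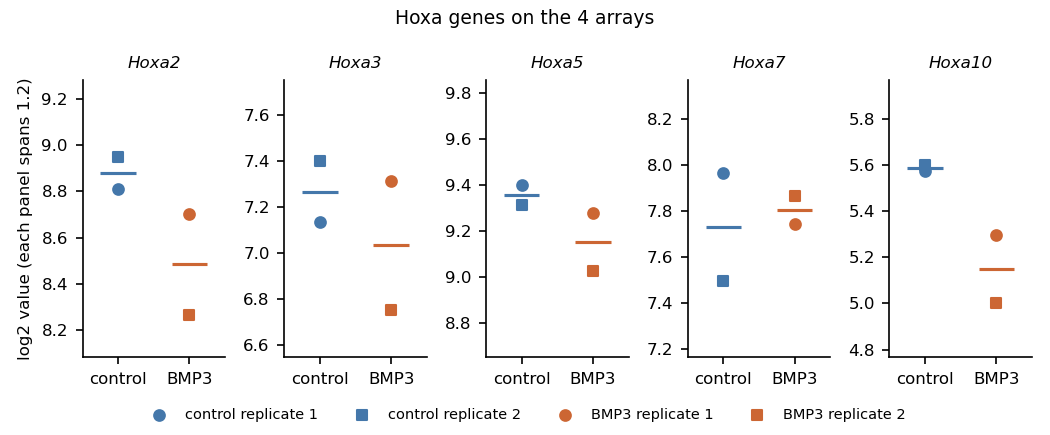
Log2 value (vertical axis, 1.2 units in each panel) of the 4 expressed Hox genes and of Hoxa10 on each array, with lines at the group means of 2 arrays. In Hoxa2, Hoxa5 and Hoxa10 both BMP3 points lie under both control points, and BMP3 replicate 2 is the lowest array in each panel but that of Hoxa7, where control replicate 2 is lowest at 7.50.

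BMP3 replicate 2 held the lowest value of Hoxa2, Hoxa3, Hoxa5 and Hoxa10, and the size of their differences followed it. The median difference over the 4 expressed genes was -0.22, beside 0.02 over all 9185 genes averaging 6 or more. Without BMP3 replicate 2 it was -0.03, and without BMP3 replicate 1 it was -0.42. Without BMP3 replicate 2 the difference of Hoxa2 was -0.18, that of Hoxa5 -0.08 and that of Hoxa3 0.05. Without BMP3 replicate 1, Hoxa2 had -0.62 and Hoxa5 -0.33. Hoxa7 changed sign without control replicate 2, to -0.16, and had 0.31 without control replicate 1.

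Hoxa10 had the largest difference of the 33 genes in the deposited values, though its mean stayed under 6. Hoxa2 had a larger one under quantile normalization (-0.33 against -0.28) and with all probe sets averaged (-0.40 against -0.25). Hoxa10 averaged 5.59 ± 0.02 in the controls and 5.15 ± 0.21 in the treated cultures, a difference of -0.44 (interval -0.82 to -0.06, unadjusted p = 0.0345, limma adjusted p = 0.523). The difference corresponds to 1.35-fold. Its groups did not overlap, so no fit with 1 array left out could turn its sign, and those fits ran from -0.59 to -0.29. Fits with the replicate number as a block or with a trend prior keep the same difference by construction. With the 2 other normalizations and with all probe sets averaged the difference ran from -0.40 to -0.25. The unadjusted p was 0.119 under quantile normalization, 0.119 with control replicate 1 left out and 0.132 with control replicate 2 left out. The dimmer probe set of the gene gave -0.06 ± 0.06 (SE), at a level near the array median.

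The other dim members gave little to compare. Their differences ran from -0.23 (Hoxa4) to 0.23 (Hoxb3), and over all 29 dim members the median was -0.01. Hoxa4 had -0.23 ± 0.14 (SE) and Hoxb3 0.23 ± 0.17, the latter with its highest value, 3.95, in BMP3 replicate 2. Hoxd8, the brightest of the Hoxd cluster on its probe set, had -0.04 ± 0.07. Counting all members, 24 of 33 had a lower mean in the treated cultures, 8 a higher one and Hoxa13 an equal one (within 1e-09), and 57.6% of all genes had a lower mean. The groups did not overlap in 9 of the 33, all lower, against 37.3% of all genes (20.6% lower and 16.7% higher). Of these 9, 7 averaged under 6, most with differences of a few hundredths of a log2 unit, and the count was 14 under quantile normalization and 15 under median centring.

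**Figure D4:**
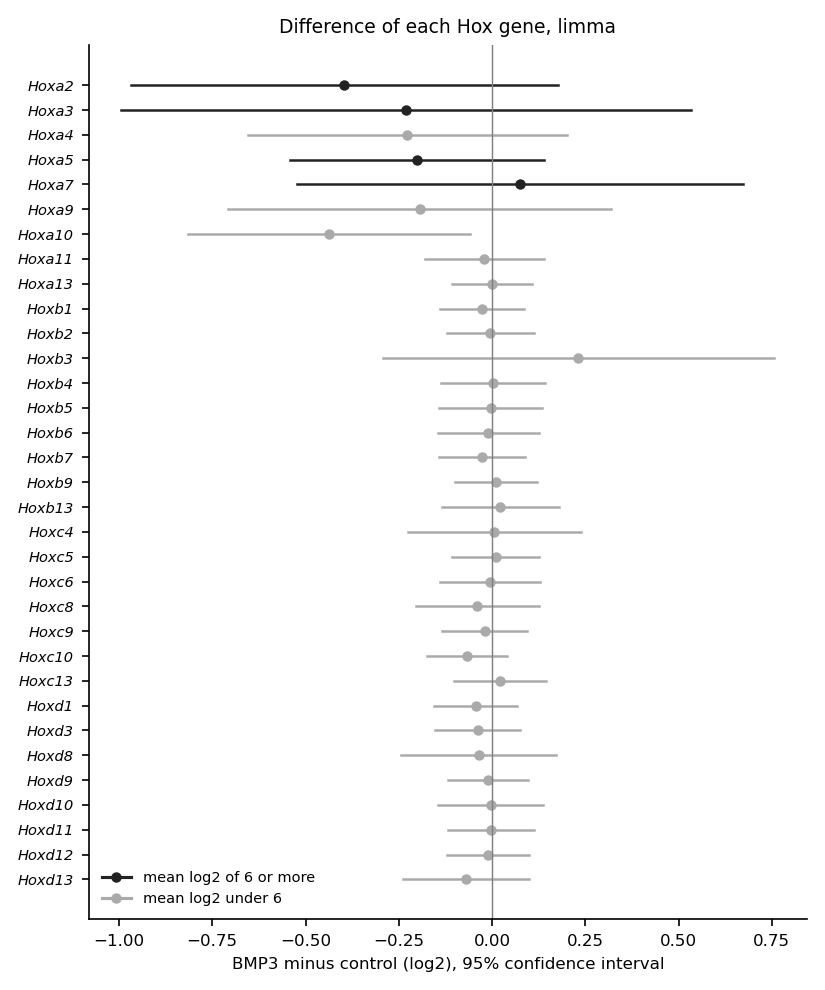
Difference of each of the 33 Hox genes, BMP3 minus control on the log2 scale (horizontal axis), with its 95% confidence interval from limma, black where the mean was 6 or more and grey where it was under 6. The interval of Hoxa10 (-0.82 to -0.06) is the only one that leaves out 0, and those of most Hoxb, Hoxc and Hoxd genes are narrow.

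Array controls also differed between the groups. The 18S ribosomal RNA probe sets averaged 11.41 and 10.50 in the controls and 8.99 and 9.90 in the treated cultures, and the poly-A spike-in Dap 10.18 and 9.66 against 8.98 and 8.79. The spike-ins Lys, Phe and Thr were likewise lower on both BMP3 arrays than on both control arrays, while the hybridisation spike-in Bio averaged 9.94 to 10.11. Their part in the Hox differences was not tested. None of the marker genes passed the adjusted threshold. In the neural list Map2 had 11.01 and 11.12 in the controls and 10.35 and 10.21 in the treated cultures, whereas Nes had 5.63 and 7.12 in the controls and 7.35 and 8.06 in the treated cultures and dim Tubb3 had 4.28 and 4.08 against 4.60 and 4.75. Of the 13 expressed mesenchymal markers, 6 had a higher and 7 a lower mean in the treated cultures (median difference -0.02). An unadjusted p under 0.05 was found in 2 of the 13 (15.4%), both higher, against 18.2% of all genes averaging 6 or more. They were Thy1, which encodes CD90, at 9.08 and 8.85 in the controls and 9.67 and 9.72 in the treated cultures, and Cd44, a hyaluronan receptor gene, with a difference of 0.64. Nes, Tubb3, Thy1 and Cd44 were picked out after their values were seen, and the part of these markers in the Hox differences was not tested. Mesenchymal list means were 12.81 and 12.73 in the controls and 12.90 and 12.76 in the treated cultures.

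Among partners and regulators of Hox proteins, most genes of the TALE, Polycomb and Trithorax lists were expressed (5 of 8, 20 of 23 and 11 of 11). Fewer were expressed in the retinoic acid and upstream axial lists (7 of 16 and 2 of 9). Of all genes measured, 50.5% reached 6. No gene of these lists passed the adjusted threshold. Over 10 lists around the Hox genes, 74 genes averaged 6 or more, of which 15 (20.3%) had an unadjusted p under 0.05, 9 higher and 6 lower. Over all 9185 genes at that level the share was 18.2%, with 9.87% higher and 8.33% lower. The share in these lists was thus close to that of all genes. The median difference of the 74 was 0.00.

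Among TALE cofactors, 5 of 8 measured were expressed, 1 with a higher and 4 with a lower mean in the treated cultures (median -0.22). Meis2, which binds DNA beside Hox proteins and marks the proximal limb, had log2 values of 13.28 and 13.41 in the controls and 12.94 and 12.76 in the treated cultures. Its difference was -0.50 ± 0.10 (SE, unadjusted p = 0.0119, limma adjusted p = 0.391), and its 3 other bright probe sets gave -0.26, -0.43 and -0.99. Pknox1, a relative that also pairs with Pbx proteins, went the other way, from 9.30 and 9.47 to 9.91 and 9.80 (0.47 ± 0.09, limma adjusted p = 0.381), but its second bright probe set gave -0.14. Meis1 had -0.44 ± 0.29 (-0.12 without BMP3 replicate 2) and Pbx3 -0.22 ± 0.08, and the second probe sets of these genes gave -0.50 and 0.04. The expressed cofactors thus covered all 3 families of the class, as Pbx2 and Pbx3, Meis1 and Meis2, and Pknox1.

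The Polycomb list had 20 of 23 measured members expressed, among them Ezh2, Eed and Suz12, the core of the complex that methylates histone H3 at Hox loci. Of these 20, 9 were higher and 11 lower (median -0.05), and 5.0% had an unadjusted p under 0.05, against 18.2% of all genes averaging 6 or more. Bmi1, a subunit of the other Polycomb complex, was the 1 member with an unadjusted p under 0.05, at 13.03 and 12.77 in the controls and 12.58 and 12.39 in the treated cultures (-0.41 ± 0.13, limma adjusted p = 0.583). Next by p came Rbbp4 and Rbbp7, histone-binding subunits, with 0.18 ± 0.07 and 0.09 ± 0.03, and Phc2, a Polycomb homologue of the polyhomeotic family, with 0.29 ± 0.15. The other bright probe sets of Rbbp4 gave the opposite sign (-0.27, -0.22 and -0.996), while those of Bmi1, Rbbp7 and Phc2 gave -0.53, 0.12 and 0.58. Ezh2, Eed and Suz12 had -0.13, -0.06 and 0.06, and the 95% confidence interval of each held 0.

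In the Trithorax and demethylase list all 11 measured members were expressed (median 0.02). Of these, 5 (45.5%) had an unadjusted p under 0.05, 4 higher and 1 lower, against 18.2% of all genes averaging 6 or more. Whether this list differs from other genes was not tested. Dot1l, a histone H3 methyltransferase, had the largest difference, from 6.42 and 6.58 in the controls to 8.16 and 7.52 in the treated cultures (1.34 ± 0.26, limma adjusted p = 0.392). Wdr5, a shared subunit of the H3K4 methyltransferases, went from 9.28 and 9.44 to 9.84 and 10.02 (0.57 ± 0.10, limma adjusted p = 0.363), and its partner Rbbp5 had 0.34 ± 0.08. Kdm6b, which removes the Polycomb mark, was lower, at 10.02 and 10.03 in the controls and 9.24 and 9.62 in the treated cultures (-0.60 ± 0.16, limma adjusted p = 0.496). Its second bright probe set gave -0.03 and the other -0.70. The groups of Dot1l, Wdr5, Rbbp5 and Kdm6b did not overlap, but these 4 were named for their small p, which favours such groups. Over all genes the groups did not overlap in 37.3%.

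**Figure D5:**
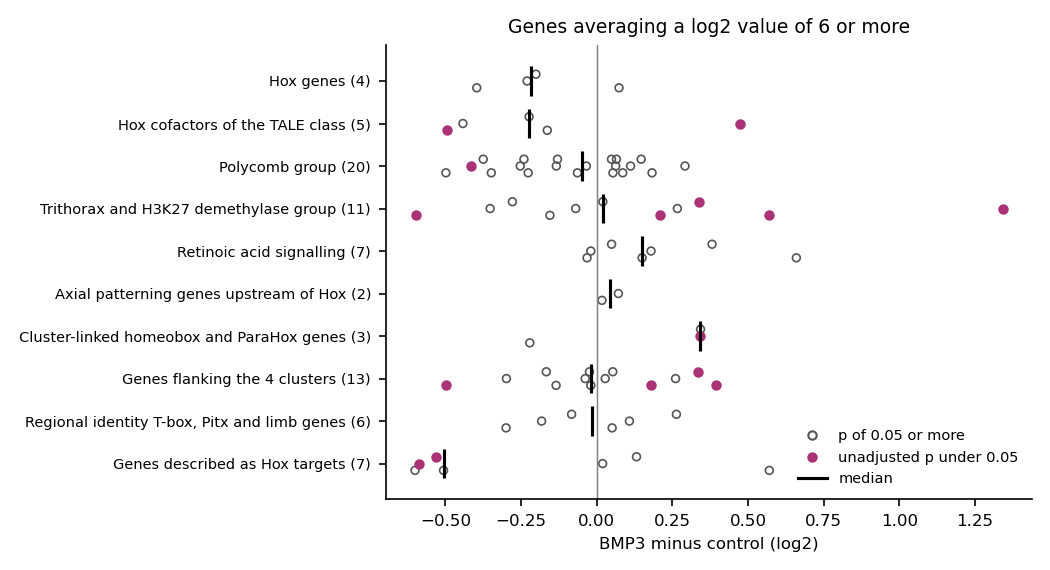
BMP3 minus control difference on the log2 scale (horizontal axis) of each gene averaging 6 or more among the Hox genes and 9 lists around them, with the number of genes in brackets, filled where the unadjusted p was under 0.05, and a black bar at the median. The Hox genes have a median of -0.22 and no filled point, and Dot1l in the Trithorax list lies farthest to the right, at 1.34.

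Retinoic acid, which switches on anterior Hox genes in the embryo, had 7 of 16 pathway genes expressed, 5 higher and 2 lower (median 0.15), none with an unadjusted p under 0.05. These directions depended on single arrays, with 3 higher and 4 lower without control replicate 1 or without BMP3 replicate 1, and 4 higher and 3 lower without control replicate 2. The receptor genes Rarg (0.15 ± 0.24) and Rxra (0.18 ± 0.22) and the enzyme gene Rdh10 (0.66 ± 0.46) had wide errors, as did Crabp2, the gene of a retinoic acid binding protein (0.38 ± 0.54), and Rarb, a direct target of the pathway, averaged 2.40. The synthesis enzymes Aldh1a1, Aldh1a2 and Aldh1a3 averaged 2.32 to 2.87. Of the 11 measured homeobox genes linked to the clusters, 3 were expressed, Dlx1 (0.34 ± 0.21), Dlx2 (0.34 ± 0.09) and Dlx5 (-0.22 ± 0.17). Only Dlx2 had an unadjusted p under 0.05 (limma unadjusted p = 0.0292, adjusted p = 0.499). That is 33.3% of the 3, against 18.2% of all genes averaging 6 or more. No ParaHox gene (Gsx1, Gsx2, Pdx1) reached 6.

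Of the 13 expressed genes that flank the clusters, 6 were higher and 7 lower (median -0.02). An unadjusted p under 0.05 was found in 4 of them (30.8%), against 18.2% of all genes averaging 6 or more. Cbx1 near Hoxb had -0.50 ± 0.10, though its other bright probe sets gave -0.04 and 0.02. Smug1 and Cbx5 near Hoxc had 0.39 ± 0.07 and 0.33 ± 0.11, and Atp5g3 near Hoxd 0.18 ± 0.04. Skap2 and Snx10 beside the Hoxa cluster had -0.17 ± 0.10 and -0.13 ± 0.31. Among genes described as targets of Hox proteins, 7 of 15 measured were expressed, 3 higher and 4 lower. Their median was -0.51, beside 0.02 over all genes averaging 6 or more. Of the 7, 2 (28.6%) had an unadjusted p under 0.05, against 18.2% of all genes at that level. Whether the target list differs from other genes was not tested. Epha7, an ephrin receptor gene, went from 10.64 and 10.80 in the controls to 10.07 and 10.20 in the treated cultures (-0.59 ± 0.09, unadjusted p = 0.00604, limma adjusted p = 0.327), and its second bright probe set gave -0.16. Gli3, a transcription factor gene of the Hedgehog pathway, had 11.34 and 11.05 in the controls and 10.69 and 10.65 in the treated cultures (-0.53 ± 0.12, unadjusted p = 0.0193, limma adjusted p = 0.442), and its second probe set gave -0.48. The adhesion gene Ncam1 had -0.51 ± 0.28 and Cdkn1a, which encodes the cell cycle inhibitor p21, 0.57 ± 0.28. Other bright probe sets gave -0.53 and 0.05 for Ncam1 and 0.42 for Cdkn1a.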

How the data were processed

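Per the labels' protocols, biotin-labelled RNA of 4 cultures was hybridised to Affymetrix 3' arrays. The authors deposited 1 log2 value per probe set and array. That scale was inferred from the values. The submitters' processing notes name Partek, with no step. Background correction, normalization and probe summary steps were not given in the sources used here. A normalization that equalises arrays could hide a common shift. Of 45037 probe sets left after 64 controls were removed, 34945 carried 1 symbol. Values were used unfiltered. The two-sided test of each difference was that of limma (version 3.58.1, R 4.3.3, lmFit then eBayes), with p-values adjusted by Benjamini-Hochberg over every probe set tested, and the fit was tested on simulated data. Gene order and promoters are from RefSeq (GRCm38.p6). All members averaging 6 or more, the 4 dim members nearest to it and those with an unadjusted p under 0.05 are named with their values. Up to 4 expressed members per list by smallest p are named too. Their differences are given except in the regional and upstream axial lists. Other genes illustrate a list's count and were chosen after their values were seen. The members and lists were chosen with earlier results of these data known. Alternatives were 2 normalizations, thresholds of 5 and 7, a filter, all probe sets averaged, a trend prior, the replicate number as a block and each array left out. The number of arrays limits the precision.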

Additional observations from a re-analysis of the deposited data

How the results depend on the processing

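The count of 4 expressed Hox genes was 5 at a threshold of 5, 3 with all probe sets averaged, and 4 under every other alternative run. No Hox gene passed an adjusted p of 0.05 under any of the 10 alternatives fitted. The count at an unadjusted p under 0.05, 1 as reported, was 0 under quantile normalization and, since Hoxa10 is then not tested, 0 among probe sets averaging 6 or more; with 1 array left out it ran from 0 to 5. The 9 genes whose groups did not overlap became 14 under quantile normalization, 15 under median centring and 17 to 24 with 1 array left out, where a group of 1 array overlaps less often by construction. The median difference of the expressed genes ran from -0.42 to -0.032 with 1 array left out. It was -0.13 under quantile normalization, -0.18 under median centring and -0.16 with all probe sets averaged. Over all genes averaging 6 or more the median was 0.05 under quantile normalization and 0.06 under median centring. The 15 genes of the surrounding lists became 9 among probe sets averaging 6 or more, 25 with the replicate block and 7 to 16 with 1 array left out, with 7 without control replicate 1; the cause was not tested. Signs turned with 1 array left out for Hoxa3 (-0.51 to 0.050, positive without BMP3 replicate 2), Hoxa7 (-0.16 to 0.31, negative without control replicate 2) and Hoxd8 (-0.10 to 0.030, positive without control replicate 2), and under median centring for Hoxd8 (0.0028). Of 33 named genes of the surrounding lists, 7 also changed sign with 1 array left out, none of them with an unadjusted p under 0.05, among them Rarg (-0.11 to 0.41), Rxra (-0.092 to 0.45) and Crabp2 (-0.16 to 0.92). Rdh10 ran from 0.11 without control replicate 1 to 1.21 without control replicate 2, and Cbx5 was 0.21 without control replicate 1. Same-numbered arrays deviated together (r = 0.596 across 17152 probe sets, which are not independent), but nothing in the labels says that a number marks a shared day. The replicate block left the count of Hox genes at 1 unadjusted and 0 adjusted. A fit with 1 array left out assumes that the lone array varies like the other group. Whether the dim Hox genes are silent or under the detection of these probe sets was not tested.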
